A study of Homo sapiens with 2 samples.

Results

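The genes described here build, desaturate, burn and store fatty acids. They are 40 genes chosen by symbol, of the 24991 single-gene symbols in the table, and each symbol had 1 row. RNA was sequenced from PLC/PRF/5, an established human hepatoma line, in 2 cultures under hypoxia: 1 overexpressing NFX1, a zinc-finger transcription factor (the NFX1 library), and 1 with the empty vector EV (the vector library). The oxygen level, the hours of hypoxia, the vector and the NFX1 isoform are not given in the sources used here. With 1 library per group there is no replicate check and no test. Every difference compares these 2 libraries and cannot be told apart from the spread between cultures.

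Fatty acid synthesis starts from citrate exported by mitochondria. ATP citrate lyase makes cytosolic acetyl-CoA, acetyl-CoA carboxylase makes malonyl-CoA, and fatty acid synthase joins these units into palmitate, which elongases and desaturases then modify. Malonyl-CoA also blocks the carnitine shuttle, so that synthesis and mitochondrial oxidation tend not to run together. The desaturases use molecular oxygen, and hypoxic cells are known to oxidise less fat and to keep more of it in lipid droplets.

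Levels are FPKM (fragments per kilobase of transcript, scaled to library depth), which allow genes to be compared per length. The change of a gene is the log2 ratio of FPKM + 1, NFX1 over vector, and understates the change of genes with low values. A gene counted as measured when it had at least 1 FPKM in a library, which held for 39 of the 40 members and for 11182 genes in all. The remaining member was ACSL1, an acyl-CoA synthetase of liver, at 0.564 FPKM in the NFX1 library and 0.714 FPKM in the vector library. Since few genes differed by much between these libraries, a change of at least 0.32 either way, which is 25% higher or 20% lower in FPKM + 1, was used as the limit to describe members. The steps between low values put about 29.8 M fragments in the NFX1 library and 26.0 M in the vector library, and intervals given for a fold are exact 95% intervals from fragments estimated with these depths. They cover counting error only.

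NFX1 itself had 56.0 FPKM in the NFX1 library and 4.21 FPKM in the vector library. Hepatocyte and hepatoma markers were mixed. SERPINA1, TF, KRT8 and KRT18 were abundant, SERPINA1 at 6807 FPKM in the NFX1 library and 5935 FPKM in the vector library, and APOA1 and APOB were lower. Albumin (ALB) at 1.06 and 0.776 FPKM, TTR at 1.96 and 1.38, FGB at 1.64 and 1.70 and AFP at 7.73 and 7.48 FPKM in the NFX1 and vector libraries were low. All 5 adipocyte markers were under 1 FPKM in both libraries, with a summed level of 0.191 FPKM in the NFX1 library and 0.0347 FPKM in the vector library, and ADIPOQ and CIDEA were at 0. All 5 fibroblast and all 4 endothelial markers were also under 1 FPKM, and of 6 blood markers LYZ, CD68 and HBA1 were measured.

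Of the 39 measured members, 3 were past this limit with higher values in the NFX1 library, against 6.12% of all measured genes, and 1 with a lower value, against 2.3% of all measured genes. The 3 higher members were ACADS, a dehydrogenase of fatty acid oxidation, FADS2, a desaturase, and FASN, fatty acid synthase. The lower one was ACSL4, which activates polyunsaturated fatty acids. None reached 1.5-fold, which 0.42% of genes passed upward and 0.215% downward, or 2-fold, which 0.107% and 0.0358% passed. Of the 39, 20 lay within 1.1-fold, against 49.9% of all measured genes. These shares were near those of all genes, and the members' median change of 0.00 was near that of all measured genes, 0.01.

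The promoters of ACADS, FADS2 and ACSL4 were looked at, together with those of SCD, the most abundant member, and of PLIN2, a droplet protein. Sequences come from the RefSeq promoter table on build GRCh38.p14, 250 bases before to 50 after each start, which held 33 of the 40 members. They run 5′ to 3′ in the direction of transcription, and capitals mark the searched motifs. The windows are chr12:120725576-120725875 (plus strand) for ACADS, chr11:61816154-61816453 (plus strand) for FADS2, chrX:109733208-109733507 (minus strand) for ACSL4, chr10:100346983-100347282 (plus strand) for SCD and chr9:19127443-19127742 (minus strand) for PLIN2.
ACADS: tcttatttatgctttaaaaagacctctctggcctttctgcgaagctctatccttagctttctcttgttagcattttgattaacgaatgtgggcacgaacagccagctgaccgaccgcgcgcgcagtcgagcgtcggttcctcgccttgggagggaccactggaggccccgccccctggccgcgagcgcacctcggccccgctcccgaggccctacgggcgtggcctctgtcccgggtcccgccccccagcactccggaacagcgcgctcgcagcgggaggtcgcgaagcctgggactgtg
FADS2: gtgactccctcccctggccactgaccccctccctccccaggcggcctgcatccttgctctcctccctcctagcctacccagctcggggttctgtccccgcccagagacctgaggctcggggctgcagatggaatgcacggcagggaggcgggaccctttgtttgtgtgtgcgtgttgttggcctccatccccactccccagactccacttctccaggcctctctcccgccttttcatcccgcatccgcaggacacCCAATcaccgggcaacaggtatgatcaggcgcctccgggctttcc
ACSL4: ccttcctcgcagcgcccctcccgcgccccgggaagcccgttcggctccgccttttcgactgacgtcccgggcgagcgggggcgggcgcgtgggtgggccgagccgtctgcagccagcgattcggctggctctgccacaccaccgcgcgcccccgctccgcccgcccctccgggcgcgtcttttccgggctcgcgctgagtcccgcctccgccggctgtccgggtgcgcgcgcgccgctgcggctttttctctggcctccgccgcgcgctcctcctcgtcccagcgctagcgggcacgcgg
SCD: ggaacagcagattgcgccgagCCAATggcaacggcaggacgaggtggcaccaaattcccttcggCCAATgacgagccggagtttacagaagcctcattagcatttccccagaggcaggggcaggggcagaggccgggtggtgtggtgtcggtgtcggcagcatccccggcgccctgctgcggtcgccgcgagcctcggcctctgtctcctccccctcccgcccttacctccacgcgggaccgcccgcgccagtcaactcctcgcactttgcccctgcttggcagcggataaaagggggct
PLIN2: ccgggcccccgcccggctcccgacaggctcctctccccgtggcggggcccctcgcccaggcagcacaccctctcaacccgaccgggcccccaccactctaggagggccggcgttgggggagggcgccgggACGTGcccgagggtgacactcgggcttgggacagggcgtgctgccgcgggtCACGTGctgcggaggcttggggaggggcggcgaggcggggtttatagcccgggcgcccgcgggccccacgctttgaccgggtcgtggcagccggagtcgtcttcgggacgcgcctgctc
The searched motifs, on both strands, were the hypoxia element core ACGTG, the E-box CACGTG that contains it, the CCAAT box CCAAT, the sterol element TCACNCCAC and the direct-repeat PPAR element. The hypoxia core was in 9 of 33 member promoters (27.3%) and in 24.9% of all 27305 genes' promoters. Among the printed windows only that of PLIN2 held it, once alone and once within an E-box. A CCAAT box was in 15 of 33 (45.5%) and in 39.7% of all, with 2 in SCD and 1 in the printed FADS2 window. The sterol element was in 2 members, ACSL1 and PNPLA2 (6.06%, against 1.39% of all), the E-box in 2 (6.06%, against 8.77% of all), and the PPAR element in 0 of 33 (0.0293% of all). The ACADS and ACSL4 windows held none of these motifs.

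**Figure D1:**
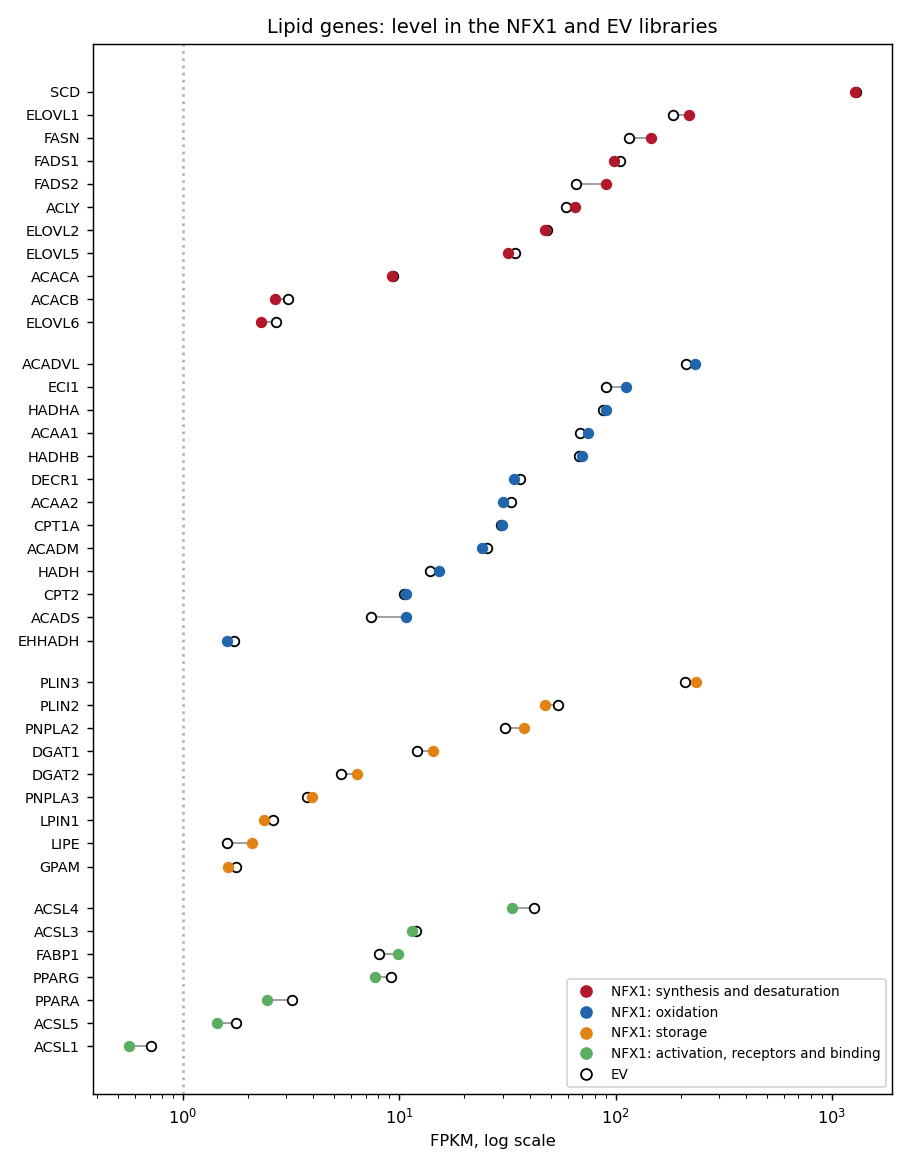
FPKM of the 40 members on a log axis, with a filled point for the NFX1 library (coloured by class) and an open point for the vector library, each class ordered by level. SCD stands at 1276 and 1293 FPKM, far above the rest, and the 2 points of most genes nearly touch; the dotted line marks 1 FPKM.

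The synthesis and desaturation genes had no common direction. Of 11 members, 4 had a higher and 7 a lower value in the NFX1 library. Of all 11182 measured genes, 5816 were higher and 5366 lower. The median change of the class was -0.02, and 2 members were past the limit, both higher. SCD, the desaturase that makes oleate and palmitoleate, had 1276 FPKM in the NFX1 library and 1293 FPKM in the vector library, and ranked 81 among the measured genes by mean level. Its fold of 0.987 (interval 0.981 to 0.993) was among the closest to 1 of all members. FASN, at chromosome 17, 80036214 to 80056106 (hg19), had 145 FPKM in the NFX1 library and 115 FPKM in the vector library, a fold of 1.26 (interval 1.24 to 1.28) and a change of 0.33, just past the limit. It was inside the limit under every other scaling tried and with the larger pseudocount, at 0.20 with the total FPKM of the libraries set equal. As deposited SCD was nearly level between the libraries, but its change was -0.06 under upper-quartile scaling and -0.15 with total FPKM set equal. These scalings shift all genes. The median change of all measured genes was -0.02 under upper-quartile scaling and -0.10 with total FPKM set equal, here and below.

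Upstream of FASN, ACLY, which makes cytosolic acetyl-CoA, had 64.9 FPKM in the NFX1 library and 58.9 FPKM in the vector library, a change of 0.14. ACACA, the cytosolic acetyl-CoA carboxylase of lipogenesis, had 9.25 and 9.30 FPKM in the NFX1 and vector libraries. Its mitochondrial paralog ACACB, whose malonyl-CoA restrains the carnitine shuttle, had 2.65 FPKM in the NFX1 library and 3.07 FPKM in the vector library, a change of -0.16. The rate-setting carboxylase was the least abundant step of palmitate synthesis, and its 2 forms stood at a ratio of 3.49 in the NFX1 library and 3.03 in the vector library.

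FADS1 and FADS2, the desaturases that make polyunsaturated fatty acids, differed in direction. FADS2, the delta-6 desaturase, had 90.4 FPKM in the NFX1 library and 65.7 FPKM in the vector library, a fold of 1.38 (interval 1.33 to 1.42) and a change of 0.46, which was 0.32, just inside the limit, with total FPKM set equal. FADS1, the delta-5 desaturase, had 98.6 FPKM in the NFX1 library and 105 FPKM in the vector library, a change of -0.09. The table gives both the same locus (chromosome 11, 61567097 to 61634826, hg19), and both FADS2 windows in the promoter table lie inside the gene body of FADS1 on the other strand. How fragments were divided between them is not given in the sources used here, so each value is less certain than their sum, 189 FPKM in the NFX1 library and 171 FPKM in the vector library, a change of 0.14.

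Of the 4 elongases, ELOVL1, which extends very long saturated and monounsaturated chains, had 218 and 184 FPKM in the NFX1 and vector libraries. Its change was 0.25, and 0.07 once a trend on GC content, length and level was subtracted. ELOVL2, for polyunsaturated chains, had 46.9 and 48.4 FPKM, and ELOVL5, also for polyunsaturated chains, 31.8 and 34.2 FPKM in the NFX1 and vector libraries. ELOVL6, which extends palmitate to stearate, was low, at 2.30 FPKM in the NFX1 library and 2.69 FPKM in the vector library, a change of -0.16. Only ELOVL1 of the 4 had a higher value in the NFX1 library.

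The 13 oxidation genes had a median change of 0.05, with 9 higher and 4 lower in the NFX1 library as deposited (3 higher and 10 lower with the total FPKM of the libraries set equal) and 1 past the limit. That one, ACADS (chromosome 12, 121163541 to 121177811, hg19), the short-chain acyl-CoA dehydrogenase, had 10.7 FPKM in the NFX1 library and 7.40 FPKM in the vector library. Its fold of 1.45 (interval 1.27 to 1.65) and its change of 0.48 were the greatest of all members. In the authors' deposited table ACADS had p = 0.041 and q = 0.999, and it was the only one of the 40 members with a p under 0.05 there; all 40 had a q of 0.999. Those p-values come from 1 library a group.

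The other dehydrogenases did not share the ACADS value. ACADVL, for very long chains and the most abundant oxidation gene, had 233 FPKM in the NFX1 library and 212 FPKM in the vector library, a change of 0.14 as deposited and 0.00 with total FPKM set equal. ACADM, for medium chains, had 24.1 FPKM in the NFX1 library and 25.4 FPKM in the vector library, a change of -0.07. The carnitine shuttle was nearly equal as deposited: CPT1A, the gate of mitochondrial entry, had 29.7 and 29.6 FPKM, and CPT2, its partner on the inner membrane, 10.7 and 10.5 FPKM in the NFX1 and vector libraries. The intervals of both folds, 0.961 to 1.05 and 0.925 to 1.11, include 1, so no difference was detectable at this depth on the deposited scale. With total FPKM set equal both were lower in the NFX1 library, at -0.13 and -0.10, of which that of CPT1A was outside its counting error. Both values were near the median of all measured genes under that setting, -0.10. CPT2 shares its listed locus with the more abundant C1orf123, at 31.4 FPKM in the NFX1 library and 26.3 FPKM in the vector library, so its value is less certain.

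HADHA and HADHB, the alpha and beta subunits of the mitochondrial trifunctional protein, had almost the same small change, 0.06 and 0.05 as deposited and -0.08 for each with total FPKM set equal. HADHA had 90.3 FPKM in the NFX1 library and 86.9 FPKM in the vector library, and HADHB 70.1 and 67.6 FPKM. The ratio of HADHA to HADHB was 1.29 in each library. The 2 genes lie head to head on chromosome 2, 21 bases apart in the table's loci (hg19), and their RefSeq windows share 194 bases (chr2:26244689-26244882, GRCh38.p14), shown here in the HADHB direction because the windows of both genes contain it.
HADHA and HADHB: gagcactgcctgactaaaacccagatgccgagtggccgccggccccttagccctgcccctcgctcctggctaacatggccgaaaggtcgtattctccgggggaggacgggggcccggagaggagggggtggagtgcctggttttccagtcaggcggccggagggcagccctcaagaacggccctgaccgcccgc
None of the 5 motifs was found in either window.

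Of the remaining oxidation genes, ECI1, an isomerase for unsaturated chains, had the next greatest change, 0.30. It had 111 FPKM in the NFX1 library and 90.2 FPKM in the vector library. Its change was 0.07 once a trend on GC content, length and level was subtracted. DECR1, a reductase for the same kind of chain, had 34.0 FPKM in the NFX1 library and 36.2 FPKM in the vector library. HADH, which acts on short chains, had 15.3 and 13.8 FPKM, and the mitochondrial thiolase ACAA2 30.3 and 32.7 FPKM in the NFX1 and vector libraries. The peroxisomal genes were ACAA1, a thiolase, at 74.4 FPKM in the NFX1 library and 68.2 FPKM in the vector library, and EHHADH, the bifunctional enzyme, at 1.60 and 1.72 FPKM. The intervals of the folds of DECR1 (0.867 to 1.02), HADH (0.998 to 1.22) and EHHADH (0.749 to 1.15) include 1. ACAA1 had a change of 0.12 as deposited, -0.01 with total FPKM set equal and -0.07 once a trend on GC content, length and level was subtracted.

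The 9 storage genes had the highest median of the 3 classes, 0.16, and 0 were past the limit as deposited. In the NFX1 library 6 were higher and 3 lower as deposited (5 and 4 with total FPKM set equal). The class holds both assembly genes and lipases, which release stored fat. Medians were 0.06 for triglyceride assembly, -0.03 for the droplet coat and 0.25 for the lipases. For triglyceride assembly, the 2 enzymes of the last step were both higher, with changes of 0.23 for DGAT1 and 0.20 for DGAT2. DGAT1 had 14.3 FPKM in the NFX1 library and 12.1 FPKM in the vector library, and DGAT2 6.35 and 5.38 FPKM. With the trend on GC content, length and level subtracted, DGAT1 and DGAT2 were at 0.06 and 0.11. DGAT1 shares its listed locus with the more abundant HSF1, at 80.9 and 69.5 FPKM, so its value is less certain. GPAM, which starts glycerolipid synthesis, had 1.62 FPKM in the NFX1 library and 1.76 FPKM in the vector library, and the phosphatidate phosphatase LPIN1 2.36 and 2.60 FPKM. The intervals of the folds of GPAM (0.783 to 1.09) and LPIN1 (0.786 to 1.05) include 1.

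The 2 droplet coat genes differed in direction. PLIN2, the coat protein of hepatocyte droplets and a known hypoxia-responsive gene, had 47.0 FPKM in the NFX1 library and 54.4 FPKM in the vector library, a fold of 0.864 (interval 0.819 to 0.911) and a change of -0.21, which was -0.34, past the limit, with total FPKM set equal. PLIN3, a coat protein that moves between cytosol and droplets, had 234 FPKM in the NFX1 library and 210 FPKM in the vector library, a change of 0.16. PLIN2 was lower than PLIN3 in both libraries, and the ratio of PLIN3 to PLIN2 was 4.99 in the NFX1 library and 3.86 in the vector library.

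All 3 lipase genes had higher values in the NFX1 library as deposited, and 2 of the 3, not PNPLA3, with total FPKM set equal. With the trend on GC content, length and level subtracted, PNPLA2 was at 0.05, PNPLA3 at -0.002 and LIPE at 0.12. PNPLA2, the main triglyceride lipase of droplets, had 37.5 FPKM in the NFX1 library and 30.9 FPKM in the vector library, a fold of 1.21 (interval 1.14 to 1.29) and a change of 0.27. LIPE, hormone-sensitive lipase, had 2.09 FPKM in the NFX1 library and 1.60 FPKM in the vector library, from an estimated 238 and 158 fragments, a change of 0.25. Its listed locus is shared with other genes, among them CEACAM1. PNPLA3, a lipid-droplet hydrolase, had 3.93 and 3.73 FPKM in the NFX1 and vector libraries, a fold of 1.05 with an interval of 0.895 to 1.24.

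**Figure D2:**
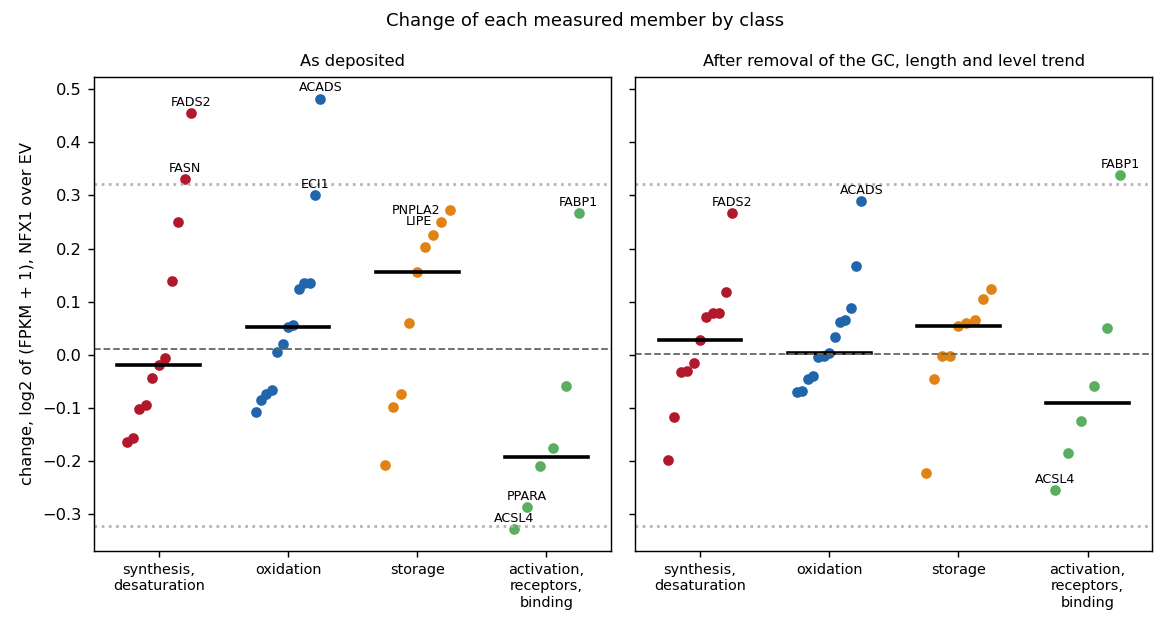
Change of each measured member (log2 ratio of FPKM + 1, NFX1 over vector) by class, as deposited on the left and with the trend on GC content, length and level subtracted on the right; black bars are class medians, the dashed line the median of all measured genes and dotted lines the limit of 0.32. ACADS, FADS2 and FASN lie above the upper dotted line and ACSL4 below the lower one on the left, and only FABP1 lies outside on the right.

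Compared as classes, synthesis and desaturation lay 0.07 below oxidation and 0.18 below storage in median change. Both differences were smaller than the median counting error of the members combined over both classes. That error was 0.088 for oxidation and 0.21 for storage, either way on the log2 scale. The members of each class overlapped widely, from -0.16 to 0.46 for synthesis and desaturation, from -0.11 to 0.48 for oxidation and from -0.21 to 0.27 for storage. In summed level, synthesis and desaturation had 1987 FPKM in the NFX1 library and 1919 FPKM in the vector library, and without SCD 711 and 626 FPKM. Oxidation genes summed to 736 and 682 FPKM and storage genes to 349 and 322 FPKM in the NFX1 and vector libraries. All 3 sums were higher in the NFX1 library as deposited and lower with total FPKM set equal, at 1808, 669 and 318 FPKM in the NFX1 library against the same vector sums. The sum over all measured genes was also higher, 736614 FPKM in the NFX1 library and 670208 FPKM in the vector library.

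The genes outside the 3 classes were mostly lower in the NFX1 library, 5 of 6 measured, at a median change of -0.19. With the trend on GC content, length and level subtracted, 4 of the 6 were lower and the median was -0.09. ACSL4 (chromosome X, 108884564 to 108976621, hg19) had 33.2 FPKM in the NFX1 library and 41.9 FPKM in the vector library, a fold of 0.792 (interval 0.762 to 0.822) and a change of -0.33. ACSL3, the acyl-CoA synthetase of droplets and endoplasmic reticulum, had 11.5 FPKM in the NFX1 library and 11.98 FPKM in the vector library, and ACSL5 1.44 and 1.76 FPKM. With ACSL1, all 4 acyl-CoA synthetases had the lower value in the NFX1 library, but the intervals of ACSL1, ACSL3 and ACSL5 include 1.

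Both PPAR receptors had lower values in the NFX1 library. PPARA, the receptor that drives oxidation genes in liver, had 2.44 FPKM in the NFX1 library and 3.19 FPKM in the vector library, a fold of 0.763 (interval 0.690 to 0.844) and a change of -0.29. PPARG, the receptor of adipocyte lipid storage, had 7.76 FPKM in the NFX1 library and 9.13 FPKM in the vector library, a change of -0.21. With total FPKM set equal both were past the limit, at -0.38 and -0.33, where the median of all measured genes was -0.10. With the trend on GC content, length and level subtracted, PPARA and PPARG were at -0.19 and -0.12. At a pseudocount of 5 they were at -0.14 and -0.15. FABP1, the fatty acid carrier of hepatocytes, was the 1 gene of this group with the higher value, 9.86 FPKM in the NFX1 library and 8.03 FPKM in the vector library, but the interval of its fold (0.959 to 1.57) includes 1.

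The changes of the members followed the base composition of their transcripts. Across the 39 measured members, change and GC content had a Pearson r of 0.78 and a Spearman rho of 0.74, and across 10983 genes of the same libraries 0.57 and 0.62; all points share the same 2 libraries. The 7 members among the 20% of genes with the lowest GC content had a median change of -0.07, near the -0.11 of all genes there. The 7 members among the 20% with the highest GC content had a median of 0.30, against 0.21 for all genes there. ACADS, FADS2 and FASN have GC contents of 64.6%, 60.7% and 65.3%, and ACSL4 has 37.4%.

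After a fitted trend on GC content, transcript length and level was subtracted, 1 member was past the limit upward (1.96% of all genes) and 0 downward (2% of all genes). That member was FABP1, whose GC content is 45.2% and whose change was then 0.34. It rests on an estimated 163 fragments in the NFX1 library and 116 in the vector library. Its counting error, 0.35 either way on the log2 scale, is larger than that change. The changes of ACADS and FADS2 were then 0.29 and 0.27, that of FASN 0.12 and that of ACSL4 -0.26. PLIN2 was the member of the storage class farthest from 0, at -0.22. Of the 39 measured members 12 changed sign, 6 each way; among them PLIN3 was then at -0.04 and ACADVL and ACAA1 at -0.07 each. The class medians were 0.03 for synthesis and desaturation, 0.00 for oxidation and 0.05 for storage, so that synthesis lay 0.02 above oxidation and 0.03 below storage. The order of synthesis and oxidation therefore depends on whether this trend is left in.

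**Figure D3:**
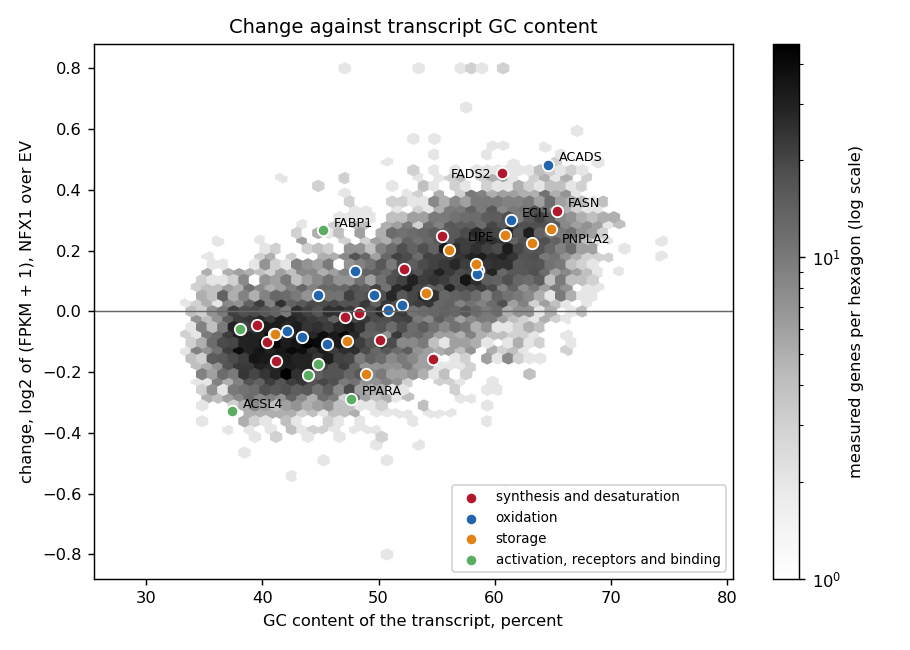
Change (log2 ratio of FPKM + 1, NFX1 over vector) against the GC content of the transcript, with members as coloured points over the density of all measured genes in grey; values beyond 0.8 are drawn at 0.8. The members run along the same slope as the other genes, with ACSL4 at the low end and ACADS and FASN at the high end, and FABP1 stands above the slope.

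Counting error is small for most members: the interval of the fold excluded 1 for 14 members that were higher and 10 that were lower in the NFX1 library. The same held for 32.3% of all genes upward and 23% downward.

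Of 116 further lipid genes, 113 were in the table and 79 were measured. In the NFX1 library 8 were higher and 2 lower past the limit, 10.1% and 2.53% of those measured, against 6.12% and 2.3% of all measured genes. Their median change was 0.08, and 0.01 once the trend was subtracted. Of the 78 matched to a transcript, 1 was then higher and 1 lower past the limit, against 1.96% and 2% of all genes.

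Genes that feed synthesis had the highest list median, 0.25 over 11 genes of carbon and NADPH supply, with 3 past the limit, all higher. SLC25A1, which exports citrate from mitochondria, had 195 FPKM in the NFX1 library and 142 FPKM in the vector library. Transketolase (TKT), which interconverts sugar phosphates, had 156 FPKM in the NFX1 library and 119 FPKM in the vector library. ME1 and IDH1, other sources of NADPH, had lower values in the NFX1 library, with changes of -0.21 and -0.16. With the trend subtracted this list's median was 0.11, and SLC25A1 and TKT were at 0.18 and 0.21.

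Of 11 lipogenic regulators 10 had higher values in the NFX1 library as deposited and 9 with total FPKM set equal. As deposited, 5816 of all 11182 measured genes were higher. With the trend subtracted 8 of the 11 were positive, against 5537 of 10983 genes. The median of the regulators was 0.17, and 0.03 once the trend was subtracted. SREBF1, the main regulator of lipogenic genes, had 63.7 FPKM in the NFX1 library and 48.0 FPKM in the vector library, a change of 0.40 (0.19 with the trend subtracted). The liver X receptor NR1H2 had a change of 0.26. INSIG2, which holds SREBP proteins in the endoplasmic reticulum, was the 1 lower gene, at 7.92 and 9.53 FPKM.

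The other lists were closer to all genes. The elongation cycle and other desaturases had a median of 0.00 over 10 genes with 0 past the limit; the reductase TECR had a change of 0.32, just inside it, ELOVL3 0.20 and the dehydratase HACD3 -0.23. Other oxidation genes had a median of 0.06 over 22 genes with 3 higher: the electron carrier ETFB at 103 and 78.9 FPKM, HSD17B10 at 276 and 216 FPKM and carnitine acetyltransferase (CRAT) at 26.9 and 21.3 FPKM in the NFX1 and vector libraries.

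Other droplet and triglyceride genes had a median of 0.04 over 19 genes, with LPIN2, a second phosphatidate phosphatase, lower at 15.5 FPKM in the NFX1 library and 19.9 FPKM in the vector library. The 1 higher gene, the acyltransferase MOGAT3, had 4.66 and 3.23 FPKM, a change of 0.42 (0.33 with the trend subtracted). It was named after its value was seen. The same applies to HILPDA, a hypoxia-induced droplet protein that inhibits PNPLA2, which had 1084 FPKM in the NFX1 library and 1164 FPKM in the vector library, a change of -0.10. AUP1 and AGPAT2 had changes of 0.29 and 0.21. Of uptake and binding genes 6 of 18 were measured, with a median of -0.02. CAV1, the caveolar protein, was lower at 32.7 FPKM in the NFX1 library and 47.9 FPKM in the vector library. Its change was -0.54, and -0.47 with the trend subtracted, still past the limit. SLC27A4 and FABP5 had changes of 0.19 and -0.02.

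**Figure D4:**
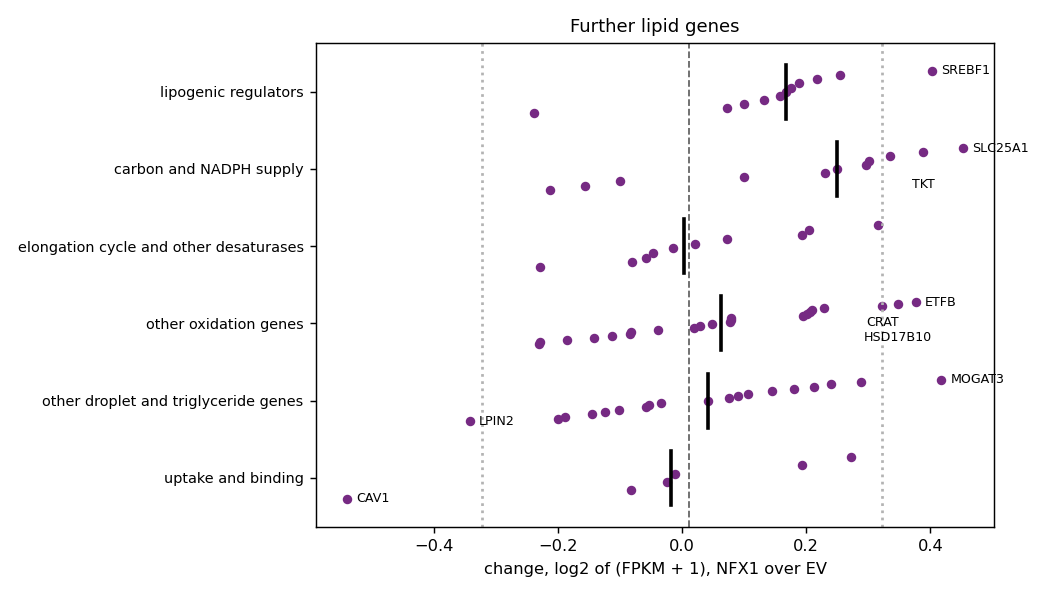
Change (log2 ratio of FPKM + 1, NFX1 over vector) of the 79 measured further lipid genes by list; black bars are list medians, the dashed line the median of all measured genes and dotted lines the limit of 0.32. Carbon and NADPH supply has its bar farthest to the right, at 0.25, and CAV1 lies farthest to the left.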

How the data were processed

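RNA-seq of 2 PLC/PRF/5 libraries was analysed, grouped by the genotype label. The submitters' processing notes name Cufflinks 2.2.1, TopHat2 2.1.0 and build hg19; settings, annotation and scaling between libraries are not stated there. The authors deposited FPKM per library together with their q-value, p-value, test score and log2 fold change for each row, per the file headers. The members and lists were chosen with earlier results of these data known. Where a symbol had several rows, that with the highest mean was used, which concerned 0 members. Named further genes are up to 3 per list by size of change with at least 5 FPKM in a library; other exceptions are stated, and some genes counted in the lists are not reported here by name. Loci were converted to count from 1.

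One fragment in the NFX1 library was worth 0.871 times that in the vector library: 59.0% of 2226 low rows had ratios within 0.005 (log2) of whole-fragment ratios, against a median of 1.89% for other steps. Olfactory receptor genes (11 values) set the absolute depth. Lengths and GC contents are those of the longest APPRIS principal transcript of GENCODE (GRCh38), matched by symbol for 98.2% of measured genes and all 40 members; no coordinates were carried over. A wrong length changes an interval's width. The trend (cubic splines of GC content, log2 length and log2 level, fitted to genes differing by up to 2-fold) took 41.3% of the variance. The steps were tested on simulated data. Alternatives covered pseudocount, filter, scaling, row choice, status, limit and trend. Computation used scipy 1.17.1, numpy 2.4.6 and pandas 2.3.3 under Python 3.11.15, with figures from matplotlib 3.10.9.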

Additional observations from a re-analysis of the deposited data

How the results depend on the processing

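No paired analysis was possible because there is 1 library per group. For the class medians and their 2 differences no counting interval was computed. Each was set against the median counting error of its members, combined over both classes for a difference. For storage this error was 0.20 either way on the log2 scale, so its shifts are not listed as moved. The storage median was 0.02 with total FPKM set equal and 0.05 with the trend removed. Synthesis and desaturation minus storage was -0.03 with the trend removed. Listed next are the class medians and differences that moved by more than this error, and the members that crossed the limit. A crossing can be smaller than the counting error of the member. With the total FPKM of the libraries set equal, which lowers the median change of all genes to -0.10, the median changes of synthesis and desaturation and of oxidation were -0.15 and -0.081; 1 member (ACADS) was higher and 4 were lower: ACSL4 at -0.46, PPARA at -0.38, PLIN2 at -0.34 and PPARG at -0.33. With the trend removed, synthesis and desaturation minus oxidation was 0.024, 1 member was higher and 0 were lower. A pseudocount of 0.1 gave 4 higher and 2 lower members, LIPE and PPARA being added. A pseudocount of 5 gave 2 higher and 0 lower. Shares of all measured genes past the limit are not given for total FPKM set equal or for these pseudocounts. The member counts under these settings therefore cannot be set against all genes. FASN was not past the limit at a pseudocount of 5 (0.32), on median centring (0.32), on upper-quartile scaling (0.29), with total FPKM set equal (0.20) or with the trend removed (0.12); FADS2 was not with total FPKM set equal (0.32) or with the trend removed (0.27). At limits of 1.5-fold and 2-fold, 0 were higher and 0 lower. ACADS ranged over all settings from 0.29 to 0.53, FADS2 from 0.27 to 0.46, FASN from 0.12 to 0.33 and ACSL4 from -0.46 to -0.26, each with the same sign throughout. Of 381 single-member values under an alternative, 335 stayed within their counting interval and 46 did not, 24 of these with total FPKM set equal and 15 with the trend removed; the cause was not tested. With 1 library per group no value has a replicate check, and the counting interval of the fold includes 1 for 15 of the 39 measured members.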
